A study of Mus musculus with 45 samples.

Results

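A set of 10 genes of the Hippo-YAP pathway was followed through liver regeneration in mice with and without Uhrf1hepKO. They are Ctgf, Cyr61, Ankrd1, Amotl2, Ajuba, Axl, Lats2, Yap1, Tead1 and Wwtr1, matched by Ensembl identifier to a deposited table of counts for 19966 genes. All 10 were in the table, and all 10 were among the 14090 genes that passed the filter on low counts. Poly(A) RNA of mouse liver had been sequenced in 45 libraries of 16 groups, which combine a genotype with a condition. The livers were wild-type (WT) or Uhrf1hepKO (KO), by its name a knockout of Uhrf1 in hepatocytes. UHRF1 is a chromatin protein needed to keep DNA methylation through replication. Livers came from C57Bl/6 mice, operated on at an age of 8 to 12 weeks, either at baseline or 24, 30, 40, 48 and 96 h, 7 days and 4 weeks after partial hepatectomy, the surgical removal of most of the liver. Of the groups, 13 had 3 libraries; WT had 2 at 30 h and 2 at 48 h, and KO had 2 at 7 days. The driver of the deletion, the alleles carried by WT mice, the sex of the mice and any sham operation were not given in the labels used here. Nothing in the labels says that the libraries of a group came from separate animals, so p-values measure the spread between these libraries, which may be partly technical. The names of the baseline libraries in the table also carry 40 h, and the labels do not say whether baseline and 40 h tissue came from the same mice, so each comparison of 40 h with baseline may be within or between mice.

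The Hippo pathway is a kinase cascade that restrains organ growth. Its terminal kinases, LATS1 and LATS2, phosphorylate the coactivators YAP (Yap1) and TAZ (Wwtr1) and hold them out of the nucleus; when they are not phosphorylated, YAP and TAZ bind TEAD proteins such as TEAD1 and switch on genes including Ctgf, Cyr61, Ankrd1, Amotl2, Ajuba, Axl and Lats2. In the liver the pathway is known for its control of organ size, and several of its targets feed back on it. Phosphorylation and location of YAP, through which the pathway mainly acts, leave no direct trace in a measurement of RNA.

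TEAD proteins recognise a core of 6 bases, GGAATG or its complement CATTCC. The sequences below show where it lies in windows before annotated starts of these genes. The windows of Amotl2, Ankrd1 and Lats2 lie inside the annotated span of the gene, so they are not upstream of its outermost start. RefSeq windows of the GRCm38.p6 assembly, 250 bases before an annotated start, were matched for 8 of the 10 genes (the table used here holds none for Ctgf and Tead1). Capitals mark the core, searched on both strands, and each sequence runs 5′ to 3′ on the strand of its gene. The Cyr61 window, chr3:145649986-145650235 on the minus strand, is shown whole, and so is that of Ajuba, chr14:54577662-54577911 on the minus strand, which holds 2 copies.
Cyr61: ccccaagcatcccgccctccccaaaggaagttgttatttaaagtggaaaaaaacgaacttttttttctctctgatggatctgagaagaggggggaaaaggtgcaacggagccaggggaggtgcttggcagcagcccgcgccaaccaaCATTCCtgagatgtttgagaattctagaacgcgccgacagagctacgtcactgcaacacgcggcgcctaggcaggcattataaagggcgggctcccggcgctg
Ajuba: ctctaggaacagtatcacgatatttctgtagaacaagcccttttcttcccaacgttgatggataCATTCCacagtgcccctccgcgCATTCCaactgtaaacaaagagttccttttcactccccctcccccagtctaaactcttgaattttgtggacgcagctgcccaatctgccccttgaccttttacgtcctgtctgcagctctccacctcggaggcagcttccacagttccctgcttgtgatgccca

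For the other matched genes only the core and the 10 bases on each side are shown, with the distance of the first core base from the start. They let the reader compare the flanks, which differ from gene to gene.
Ankrd1, -210, chr19:36120039-36120064, minus strand: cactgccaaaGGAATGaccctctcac
Ankrd1, -123, chr19:36119952-36119977, minus strand: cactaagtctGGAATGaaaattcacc
Amotl2, -65, chr9:102717729-102717754, plus strand: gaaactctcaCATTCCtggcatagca
Axl, -233, chr7:25788951-25788976, minus strand: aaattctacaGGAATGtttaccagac
Yap1, -141, chr9:8004722-8004747, minus strand: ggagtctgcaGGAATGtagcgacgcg
Wwtr1, -136, chr3:57576031-57576056, minus strand: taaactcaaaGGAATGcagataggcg

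The core of Cyr61 began at -103, and those of Ajuba at -186 and -164. Of the 8 matched genes, 7 held the core in a window. Counted by window, 8 of their 10 windows held it, where the 2 windows of Wwtr1 overlap and hold the same site. Lats2 held none in either of its 2 windows, both of which lie inside the gene. Over all 32851 windows of this length in the table, 12.6% held it. A match describes the letters of the window and is neither a measured binding site nor a cause of any value below. All 10 genes are protein coding. On GRCm38, Ctgf (Ccn2 in newer naming, ENSMUSG00000019997) lies at chr10:24595442-24598683 and Cyr61 (Ccn1, ENSMUSG00000028195) at chr3:145646976-145649981. Counts were taken over whole genes, and the strand setting of the counting was not given in the sources used here. Ctgf overlaps the antisense gene Gm15270, and Lats2 overlaps the antisense pseudogene Gm20430. If the counting ignored strand, reads of these pairs cannot be told apart. Lats2 also overlaps the protein-coding gene Gm49361 on its own strand, which is absent from the deposited counts.

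Libraries held 12.85 to 23.13 M counts (M, mega), with a median of 16.75 M. Levels are given as CPM, counts scaled to library size with TMM factors, and differences as log2 values with their SE. A difference was called at a p under 0.05 in edgeR's quasi-likelihood test, adjusted by Benjamini-Hochberg over the 14090 genes. In the 7 conditions other than 96 h, Rhox5, a germline gene kept silent by DNA methylation, was at 0 to 0.59 CPM in WT and at 1.91 to 17.1 CPM in KO. The 3 libraries labelled WT at 96 h held 2.86 to 9.58 CPM of it, inside the KO range, and those labelled KO at 96 h held 4.14 to 12 CPM. Albumin in the libraries labelled KO at 96 h, at 172000 to 301000 CPM, lay above every KO library of another condition, where the highest was 89300 CPM. The libraries labelled 96 h therefore go against their label or stand apart. They were kept out of the joint tests and the genotype mean, and counts of calls are given with and without them.

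Tead1 rose at 40 h in both genotypes, and Ajuba rose early. Amotl2 fell for much of the first days in WT, and at 30 h and 48 h in KO. Ctgf and Cyr61, the targets most often read as YAP activity, were not shown to vary together. None of the 10 was shown to differ between the genotypes outside 96 h. In joint tests of the 6 times other than 96 h against baseline, 5 of 10 genes were called in WT, where 53.6% of all genes were, and 5 of 10 in KO, where 65.7% of all genes were. Neither share exceeded the background. Tead1, Amotl2, Ajuba and Ctgf were called in both genotypes, Cyr61 in WT alone and Axl in KO alone. The WT count fell to 3 without WT 48 h replicate 3 and also without WT 4 weeks replicate 2. Ctgf lost its WT call without either of these or without WT 30 h replicate 3 or WT 7 days replicate 3, and Cyr61 without any WT library of 40 h, 48 h or 4 weeks or without WT 24 h replicate 1. With no filter on low counts the edgeR adjusted p of these WT joint tests was 0.0558 for Ctgf and 0.0699 for Cyr61, and limma on FPKM gave 0.0506 and 0.177.

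**Figure D1:**
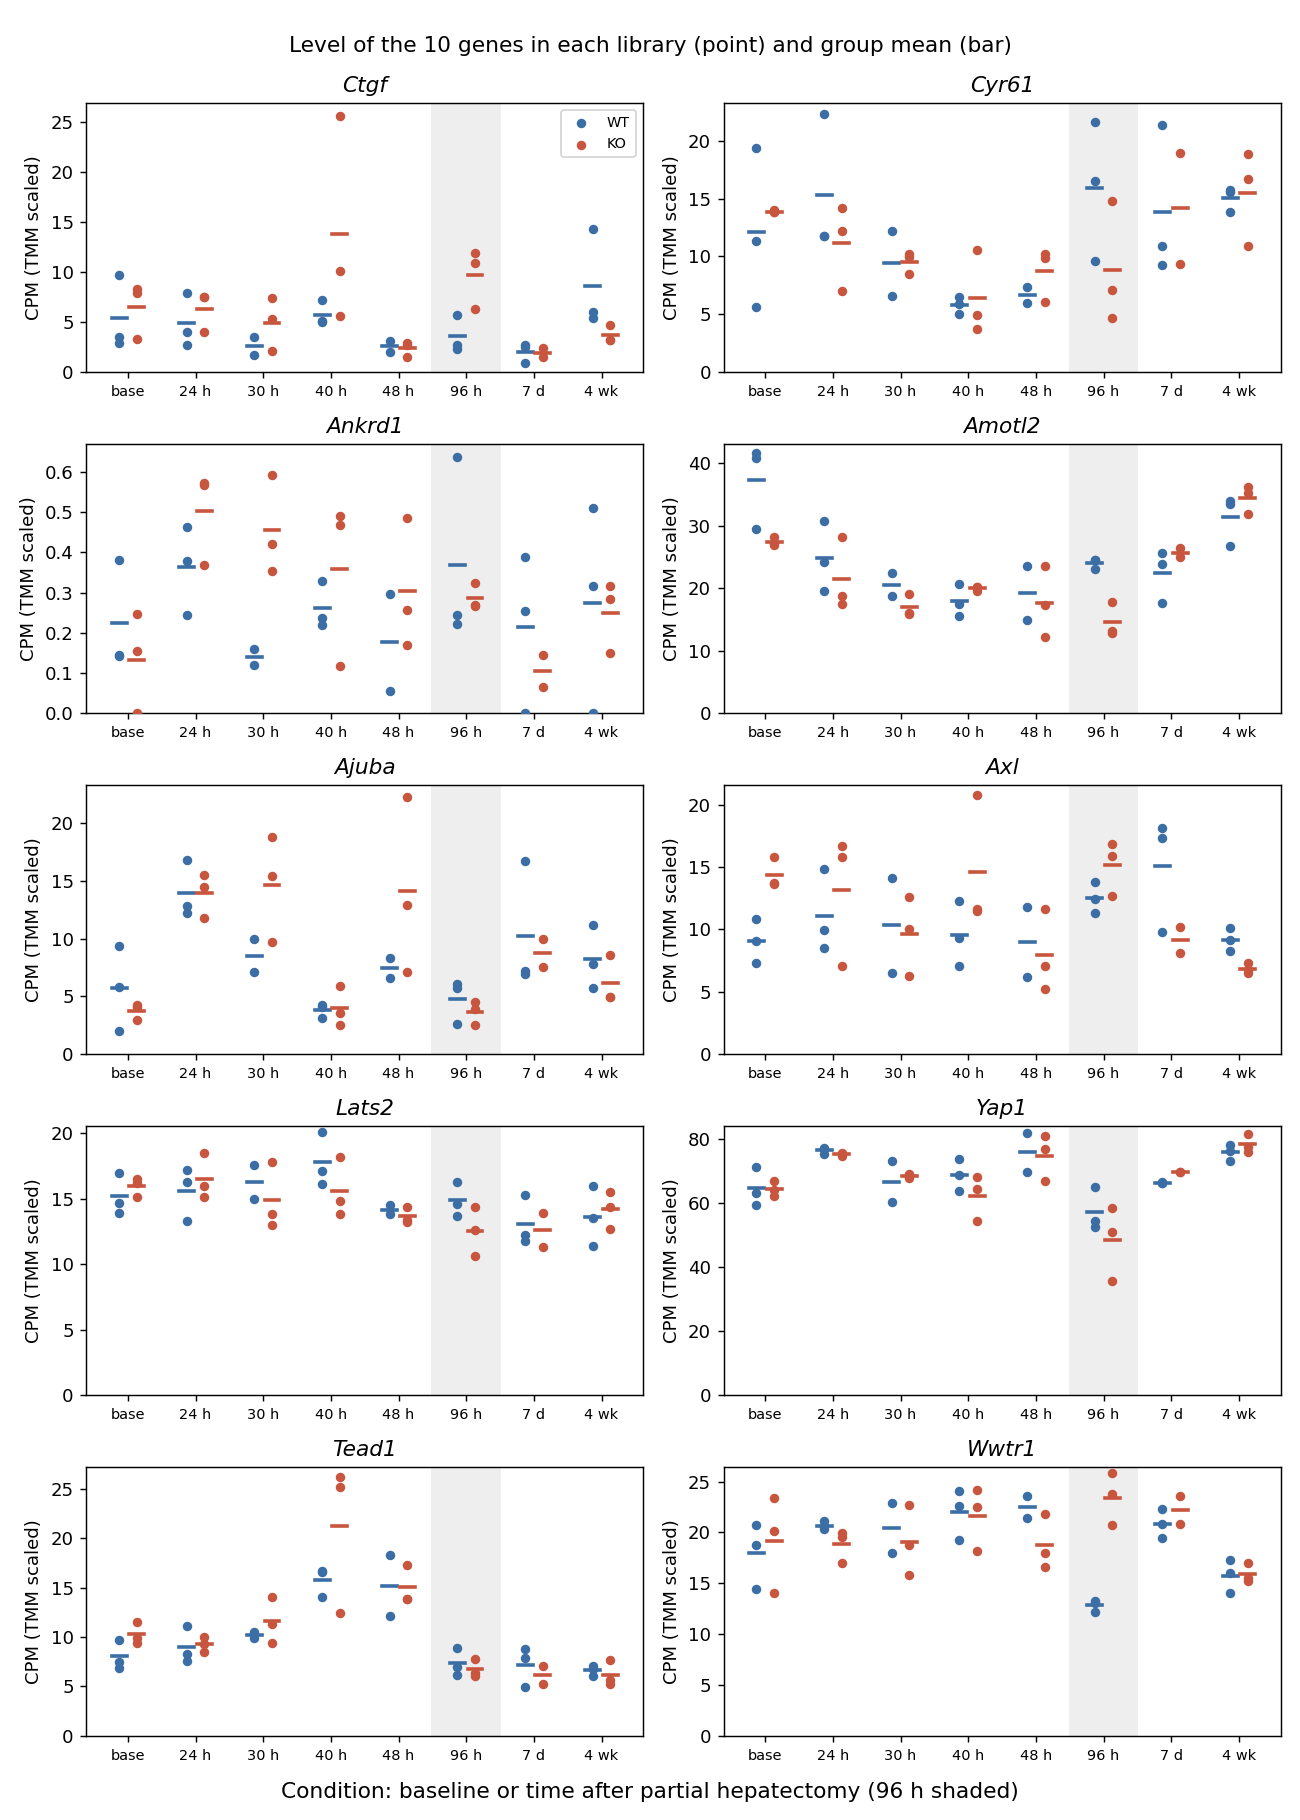
Level of each of the 10 genes in CPM (y axis, from 0, with its own scale for each gene) by condition (x axis), where each point is 1 library, blue for WT and red for KO, bars are group means and the shaded column is 96 h. Tead1 peaks at 40 to 48 h in both genotypes, and Ctgf reaches 25.6 CPM in 1 KO library of 40 h.

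Per length, the genes differed widely in level. In the deposited FPKM values (fragments scaled for gene length and library size) of WT baseline livers, Yap1 was at 13 ± 0.557 (SD, n = 3) and Amotl2 at 8.13 ± 1.39. Below them in order came Cyr61 (4.89 ± 3.04), Wwtr1 (3.06 ± 0.558), Lats2 (2.47 ± 0.17), Ctgf (2.22 ± 1.33), Axl (1.89 ± 0.572), Ajuba (1.32 ± 0.83), Tead1 (0.661 ± 0.16) and Ankrd1 (0.106 ± 0.0628). Yap1 lay clear of Amotl2, and Tead1 clear of Ankrd1; every other neighbour in this order overlapped the next in the range of its 3 libraries. The mRNA of YAP was thus the most abundant per length of the 10 at baseline, and that of Ankrd1 was close to the limit of detection.

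The scatter between libraries of the same group differed widely among the 10 genes. The SD of log2 CPM within groups was 0.68 for Ctgf, at the 97th percentile of all genes tested, 0.54 for Cyr61 and for Ajuba (91st percentile), 0.53 for Ankrd1 and 0.42 for Axl. It was 0.14 for Yap1, at the 14th percentile, 0.17 for Lats2, 0.19 for Wwtr1, 0.25 for Amotl2 and 0.29 for Tead1, against a median of 0.25 over all genes. For Ctgf, the scatter within 1 group reached a ratio of 4.57 between libraries, in KO at 40 h. The ratio reached 4.6 for Ajuba at WT baseline, and 5.3 for Ankrd1 in WT at 48 h, from 6 and 1 counts.

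Yap1 encodes YAP, the coactivator restrained by the kinases. Its level lay between 35.7 and 81.8 CPM over the 45 libraries, with a median of 68.8 CPM. The 3 WT baseline libraries held 71.3, 59.4 and 63.2 CPM, and the WT libraries of 40 h held 68.6, 63.6 and 73.8 CPM. These groups overlapped, and the change was 0.09 ± 0.11 on the log2 scale. No time other than 96 h gave a call in either genotype. Some uncalled times still lay above their own baseline without overlap. At 24 h WT libraries held 75.3 to 77.1 CPM and KO libraries 74.5 to 75.7 CPM. At 4 weeks WT held 73.2 to 78.2 CPM and KO 75.9 to 81.4 CPM. KO at 30 h (67.8 to 69 CPM) and at 7 days (69.5 to 69.7 CPM) lay above KO baseline too. All remaining groups outside 96 h overlapped their baseline. KO libraries of 96 h held 35.7, 58.5 and 51 CPM against 62, 66.9 and 64 CPM at KO baseline (log2 change -0.41 ± 0.12, edgeR adjusted p = 0.0043), with no overlap; the call was lost without KO 96 h replicate 1, the lowest library. In that comparison 44% of all genes were called. The joint test missed the threshold in both genotypes (adjusted p = 0.246 in WT and 0.0805 in KO), but passed it in a fit without the 6 libraries of 96 h (0.0391 in WT and 0.00936 in KO).

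Wwtr1 encodes TAZ, the paralog of YAP. It held 20.7, 18.8 and 14.4 CPM at WT baseline and 19.3, 22.6 and 24.1 CPM at 40 h in WT, groups that overlapped (log2 change 0.29 ± 0.15). KO baseline libraries, at 23.4, 14 and 20.1 CPM, covered the WT range. Outside 96 h no single time was called in either genotype. The joint test without 96 h missed the threshold in edgeR (adjusted p = 0.0661 in WT and 0.14 in KO). It passed in limma on FPKM in both genotypes (0.00501 in WT and 0.0199 in KO). The WT joint test in edgeR also passed in 3 of 45 fits without 1 library, so a change of Wwtr1 outside 96 h depends on the method. The libraries labelled WT at 96 h held 12.2, 13.1 and 13.3 CPM and those labelled KO held 23.8, 25.8 and 20.7 CPM, with no overlap. That difference was 0.87 ± 0.16 on the log2 scale (edgeR adjusted p = 0.000357), in a comparison in which 14.3% of all genes were called, and it was kept when any 1 library was left out. The change from baseline to 96 h also differed between libraries labelled KO and WT (0.78 ± 0.22, edgeR adjusted p = 0.0451, with 2.91% of all genes called). That call was lost in 19 of 45 fits without 1 library. It was also lost with no filter (adjusted p = 0.0634), a replicate block (0.0531) and limma on FPKM (0.19). The libraries labelled WT at 96 h were also below WT baseline (-0.49 ± 0.16, edgeR adjusted p = 0.0195, with 27.4% of all genes called). This call was lost without WT baseline replicate 1 or 2 or WT 96 h replicate 1 or 2. Rhox5 puts the libraries labelled WT at 96 h inside the KO range, so the genotype behind these differences is uncertain.

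Tead1, which encodes a DNA-binding partner of YAP and TAZ, had the smallest joint p of the 10 in both genotypes (edgeR adjusted p = 2.85e-05 in WT and 1.39e-07 in KO). WT libraries held 7.52, 9.73 and 6.88 CPM at baseline and 16.7, 14.1 and 16.6 CPM at 40 h. All 3 libraries of 40 h lay above all 3 of baseline, a log2 change of 0.97 ± 0.23 (edgeR adjusted p = 0.000845), where 36.5% of all genes were called. KO libraries held 11.5, 9.45 and 9.94 CPM at baseline and 12.4, 26.2 and 25.2 CPM at 40 h. Here too the groups did not overlap, although 1 library of 40 h stood close to baseline, and the log2 change was 1.05 ± 0.22 (adjusted p = 0.000285; 35.6% of all genes called). Both 40 h calls were kept when any 1 library was left out. The changes of the genotypes at 40 h differed by 0.08 ± 0.32 on the log2 scale, with a 95% interval of -0.56 to 0.71.

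At 48 h, the 2 WT libraries held 18.3 and 12.1 CPM of Tead1 (log2 change 0.92 ± 0.25, edgeR adjusted p = 0.00417; 31% of all genes called), a call lost without WT 48 h replicate 2. The KO libraries of 48 h held 13.9, 17.3 and 13.9 CPM, a change of 0.55 ± 0.22 (adjusted p = 0.0482; 36% of all genes called) that was lost in 23 of the 45 fits that each left out 1 library, with a replicate block (0.0559) and in limma on FPKM (0.0816). Later, Tead1 lay lower. KO livers at 4 weeks held 5.7, 5.21 and 7.67 CPM, below all 3 of KO baseline (-0.72 ± 0.23, adjusted p = 0.0438; 8.57% of all genes called). That call was lost without any of the 3 KO baseline libraries, without KO 4 weeks replicate 1 or 2, and without WT 30 h replicate 3 or KO 7 days replicate 3, as well as with DESeq2 size factors (0.0527), no filter (0.0605) and a replicate block (0.052). WT livers at 4 weeks held 7.12, 6.78 and 6.04 CPM and overlapped WT baseline. At 96 h the libraries labelled KO held 7.83, 6.05 and 6.35 CPM (-0.61 ± 0.23, adjusted p = 0.0304), a call lost without KO baseline replicate 1 or KO 96 h replicate 2 or 3.

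Proliferation markers were high at 40 h, when Tead1 was high. The 8 proliferation markers (among them Mki67, Top2a and Ccnb1), all of which were called higher at 40 h in both genotypes, summed to 3.44 to 5.44 CPM at WT baseline and to 603 to 840 CPM at WT 40 h. In KO they summed to 4.08 to 4.94 CPM at baseline and to 559 to 819 CPM at 40 h. They were also high at 48 h, with sums of 582 to 975 CPM in WT and 714 to 977 CPM in KO. The 6 mesothelial markers, genes of the liver's surface layer, summed to 1.6 to 3.58 CPM at WT baseline and to 6.69 to 21.2 CPM at WT 40 h, and in KO to 1.05 to 2.68 CPM and 14.1 to 24.6 CPM. Of the 6, 3 were called higher at 40 h in WT and 5 in KO, against 19.2% and 17.9% of all genes. At WT 48 h, when Tead1 was also called higher, they summed to 1.88 to 3.47 CPM, within the baseline range, and none was called. In KO at 48 h, when Tead1 was called higher too, they summed to 5.82 to 9.58 CPM, above KO baseline without overlap. Of these 6, Msln was at 0 in 1 of the 45 libraries, Upk3b in 2, Lrrn4 in 6, Wt1 in 7 and Upk1b in 8. The 12 stellate cell markers summed to 198 to 259 CPM at WT baseline and 293 to 434 CPM at WT 40 h, and to 224 to 388 CPM and 342 to 659 CPM in KO, with 3 of 12 called higher in each genotype, close to the shares of all genes, and none at 0 in any library. The KO ranges overlapped. The part of these cell types in the values of the 10 genes was not tested. In whole liver, fewer cells of a type and less RNA per cell cannot be told apart. The 8 hepatocyte markers (Alb and Hnf4a among them) were high in all libraries, summing to at least 64600 CPM.

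**Figure D2:**
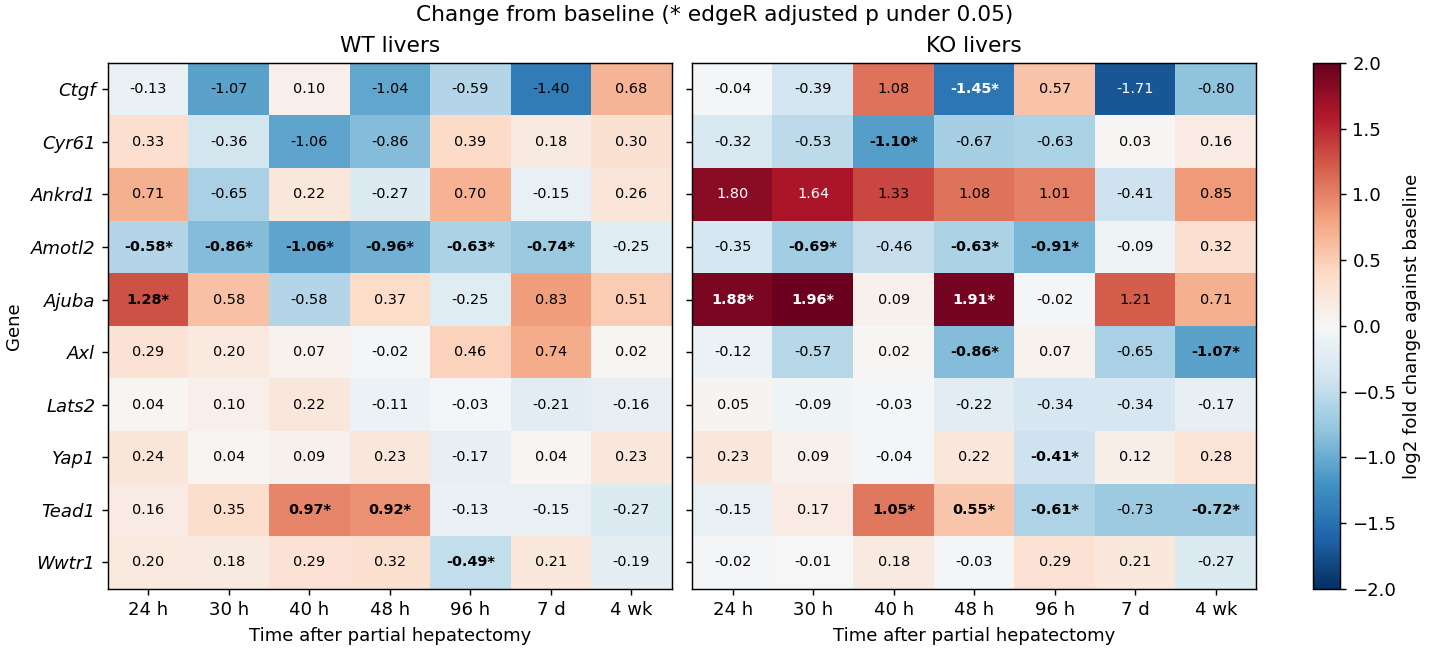
Log2 fold change of each gene (rows) at each time after partial hepatectomy (columns) against baseline, in WT (left) and KO (right), with red for higher, blue for lower and an asterisk for an edgeR adjusted p under 0.05. Amotl2 is marked at 6 of 7 times in WT, and Ajuba at 24, 30 and 48 h but not at 40 h in KO; all columns of a panel share the same 3 baseline libraries.

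Among the targets, Amotl2 encodes an angiomotin that binds YAP and restrains it. WT libraries held 29.5, 41.6 and 40.8 CPM at baseline and 20.7, 15.5 and 17.5 CPM at 40 h. All libraries of 40 h lay under all of baseline, and the log2 change was -1.06 ± 0.2 (edgeR adjusted p = 6.28e-05). Amotl2 was called lower in WT at every time but 4 weeks, with log2 changes from -0.58 ± 0.2 at 24 h to -1.06 at 40 h. The 24 h libraries, at 30.7, 24.2 and 19.6 CPM, overlapped baseline in 1 library. In limma on FPKM the calls of 24 h (adjusted p = 0.11) and 7 days (0.077) were lost. Over all genes, the share called at 24, 30, 40, 48 and 96 h, 7 days and 4 weeks was 22.4%, 17.7%, 36.5%, 31%, 27.4%, 3.56% and 1.17%. All 6 of these calls share the 3 baseline libraries, and those of 24 h, 96 h and 7 days were each lost without WT baseline replicate 2 and without replicate 3. The 24 h call was also lost without WT 24 h replicate 2 or 3, that of 30 h without WT 30 h replicate 2, that of 48 h without WT 48 h replicate 2, that of 96 h without WT 96 h replicate 1 and that of 7 days without WT 7 days replicate 2 or 3. By 4 weeks it held 26.7, 34 and 33.4 CPM and overlapped baseline.

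KO baseline livers held 28.2, 26.9 and 27.2 CPM of Amotl2, all below the 3 WT baseline libraries, but the difference of -0.44 ± 0.2 missed the threshold (edgeR adjusted p = 0.653, unadjusted p = 0.0299). KO libraries held 16.1, 19.1 and 15.9 CPM at 30 h (-0.69 ± 0.2, adjusted p = 0.00726; 33.1% of all genes called), a call kept when any 1 library was left out. They held 20.2, 20.2 and 19.5 CPM at 40 h, a change of -0.46 ± 0.2 that missed the threshold (adjusted p = 0.0678) although the groups did not overlap. At 48 h they held 12.2, 23.6 and 17.3 CPM (-0.63 ± 0.2, adjusted p = 0.011), a call lost without KO 48 h replicate 1 and in limma on FPKM (0.0874). KO libraries of 24 h, at 17.5, 18.8 and 28.2 CPM, overlapped baseline. Those of 7 days, at 26.4 and 25 CPM, lay just below it. Those of 4 weeks, at 31.8, 36.2 and 35.2 CPM, lay above all KO baseline libraries. Amotl2 was not called against KO baseline at 24 h, 7 days or 4 weeks. The change at 40 h differed between the genotypes by 0.6 ± 0.28, with an adjusted p of 1, so a stronger fall in WT was not shown. The libraries labelled KO at 96 h held 13.1, 12.9 and 17.8 CPM, below those labelled WT at 24.5, 24.5 and 23.1 CPM (-0.72 ± 0.2, adjusted p = 0.0159), a call lost without KO 96 h replicate 1 or 2 and in limma on FPKM (0.06). The 8 endothelial markers, from a cell type that makes Amotl2, summed to 137 to 167 CPM at WT baseline and to 114 to 119 CPM at WT 30 h, below baseline without overlap, with none called. At the other WT times with an Amotl2 call their sums overlapped baseline, as at 40 h (137 to 193 CPM). In KO they summed to 177 to 188 CPM at baseline, to 79.7 to 136 CPM at 30 h and to 78 to 168 CPM at 48 h. Both of these times lay below KO baseline without overlap, with 4 of 8 and 3 of 8 markers called lower, against 16.1% and 17% of all genes. At baseline the endothelial sum was higher in KO than in WT without overlap, where Amotl2 was lower. The part of endothelial cells in the values of Amotl2 was not tested.

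Ajuba encodes a LIM-domain adaptor that binds LATS kinases and dampens them. KO libraries held 2.95, 4.08 and 4.22 CPM at baseline and 15.5, 14.5 and 11.8 CPM at 24 h. At 30 h they held 18.8, 9.68 and 15.4 CPM. At 48 h they held 22.3, 12.9 and 7.12 CPM. Every library of these 3 times lay above every KO baseline library, and the log2 changes were 1.88 ± 0.43 at 24 h, 1.96 ± 0.43 at 30 h and 1.91 ± 0.43 at 48 h (edgeR adjusted p = 0.00152, 0.000688 and 0.000683). Of all genes, 23.7%, 33.1% and 36% were called in these comparisons. All 3 calls were kept when any 1 library was left out. At 40 h, between those times, KO livers held 5.94, 2.52 and 3.53 CPM and overlapped baseline (0.09 ± 0.45).

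In WT, Ajuba held 2.04, 5.79 and 9.4 CPM at baseline and 16.8, 12.8 and 12.2 CPM at 24 h. The groups did not overlap, and the log2 change was 1.28 ± 0.42 (edgeR adjusted p = 0.0256; 22.4% of all genes called), a call lost without WT baseline replicate 1 or 2 or WT 24 h replicate 1. At 30 h the 2 WT libraries held 7.08 and 9.99 CPM and at 48 h 6.58 and 8.28 CPM, neither called. At 40 h the 3 held 4.24, 4.06 and 3.15 CPM, so the low value of that time was present in both genotypes. The changes at 30 h and 48 h were larger in KO than in WT by 1.38 ± 0.64 and 1.53 ± 0.64, but neither passed the test (adjusted p = 0.555 and 0.794), and the KO and WT libraries overlapped at both times.

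Ctgf and Cyr61 encode secreted matricellular proteins of the CCN family and are standard readouts of YAP and TAZ. Ctgf held 9.71, 3.5 and 2.98 CPM at WT baseline and 5.12, 7.18 and 4.98 CPM at WT 40 h. These overlapped (0.1 ± 0.55). KO livers held 7.88, 3.34 and 8.29 CPM at baseline and 5.61, 10.1 and 25.6 CPM at 40 h, where replicate 3 held the highest Ctgf level of all 45 libraries. The mean of that group was the highest of the 16, yet its change of 1.08 ± 0.52 was not called. The stellate cell marker sums of these libraries were 358, 659 and 342 CPM in replicates 1, 2 and 3, and the part of stellate cells in the Ctgf values was not tested.

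Low Ctgf was seen at 48 h and at 7 days, and in WT also at 30 h. The 2 WT libraries held 3.54 and 1.7 CPM at 30 h and 3.16 and 2.07 CPM at 48 h. Both times overlapped WT baseline, and neither was called. At 48 h KO libraries held 1.57, 2.69 and 2.92 CPM, all below KO baseline (-1.45 ± 0.56, edgeR adjusted p = 0.0431), where 36% of all genes were called. The call was lost without KO baseline replicate 1 or 3 and without any of the 3 libraries of 48 h, as well as with no filter on low counts (adjusted p = 0.0777) and in limma on FPKM (0.142). At 7 days the 2 KO libraries held 2.42 and 1.51 CPM and the 3 WT libraries 2.71, 2.56 and 0.894 CPM, neither called against baseline, where 5.56% of all genes were called in KO. At 4 weeks WT held 5.47, 14.3 and 6.04 CPM and KO 4.73, 3.2 and 3.28 CPM, which did not overlap but were not called different (-1.21 ± 0.55, adjusted p = 0.987).

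Cyr61 was low at 40 h. WT libraries held 11.3, 19.4 and 5.65 CPM at baseline and 6.48, 5.05 and 5.9 CPM at 40 h (-1.06 ± 0.44), where the groups overlapped and no call was made. KO libraries held 13.8, 14 and 13.8 CPM at baseline and 4.96, 3.75 and 10.6 CPM at 40 h, without overlap. This change of -1.1 ± 0.43 passed narrowly (edgeR adjusted p = 0.0447) and was lost without any of the 3 KO baseline libraries, KO 40 h replicates 1 or 2, or WT 48 h replicates 2 or 3, with no filter (0.0746), in limma on FPKM (0.0611) and in a fit of the baseline and 40 h libraries alone (0.0656). In the joint test over time, Cyr61 passed in WT (adjusted p = 0.0403) and not in KO (0.11). By 4 weeks it was at 15.6, 13.8 and 15.7 CPM in WT and 16.7, 18.8 and 10.9 CPM in KO.

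Whether a library high in one classic target was high in the others was tested on log2 CPM after subtraction of the group mean, in all 45 libraries. Ctgf and Cyr61 were not shown to vary together (Pearson r = 0.06, Spearman rho = 0.01; permutation p = 0.774 and 0.976, within groups and two-sided, the same after adjustment over the 3 pairs). Ctgf and Ankrd1 gave r = 0.11 and rho = 0.13 (permutation p = 0.608 and 0.524, adjusted 0.774 and 0.976). Cyr61 and Ankrd1 gave r = 0.06 and rho = 0.01 (permutation p = 0.742 and 0.952, adjusted 0.774 and 0.976). Without the 2 libraries farthest from the median of the first gene, r was -0.05, 0.1 and 0.15, and without the 6 libraries of 96 h it was 0.11, 0.04 and 0.03. Low counts of Ankrd1 bound what its pairs can show.

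**Figure D3:**
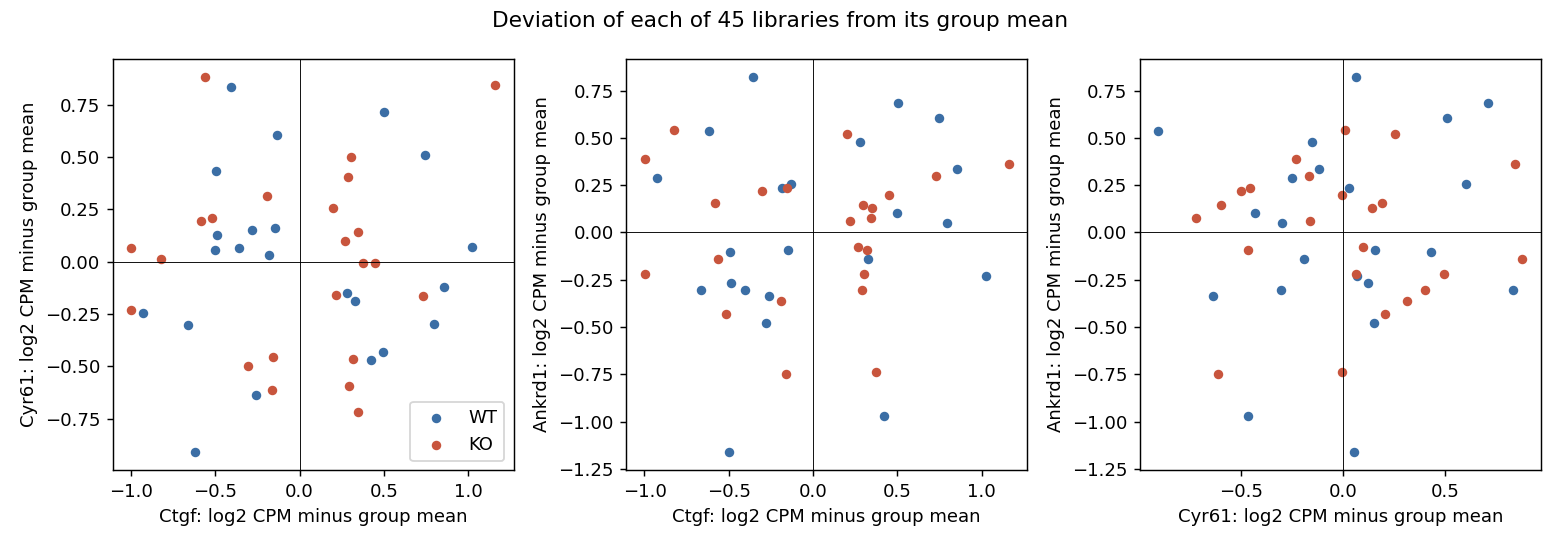
Log2 CPM minus the group mean for each pair of Ctgf, Cyr61 and Ankrd1 (both axes, log2 units), where each of the 45 points is 1 library, blue for WT and red for KO. The points fill all 4 quadrants, and r lies between 0.06 and 0.11.

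Across the 14 group means other than 96 h, the 45 pairs among the 10 genes had a median r of -0.05, and 21 were positive, which is a description over groups that share no libraries. The extremes were -0.9 for Cyr61 with Tead1 and 0.69. Genes with the profile most like that of Ctgf were Ell2 and Tmem204 (r = 0.86) and Wbp1l (r = 0.84), and 0.075% of the genes compared reached an r of 0.8 with it. Those most like Cyr61 were Lgals9, Ccdc115 and Pqlc1 (r = 0.95), and 5.85% of the genes compared reached 0.8.

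Ankrd1 encodes a nuclear ankyrin-repeat protein strongly induced by YAP in many cells. It was barely detected here: its level lay between 0 and 0.638 CPM, and no library held more than 11 counts. WT baseline libraries held 2, 2 and 5 counts, and KO baseline libraries 0, 4 and 3. KO libraries of 24 h held 10, 6 and 10 counts and those of 30 h held 9, 9 and 6, all above KO baseline. The fitted changes of 1.8 ± 0.74 and 1.64 ± 0.75 did not pass the test, and at these counts their size depends on the prior count of the fit.

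Axl encodes a receptor tyrosine kinase for GAS6, found in liver mainly on macrophages, endothelial and stellate cells. WT baseline livers held 9.05, 10.8 and 7.33 CPM and KO baseline livers 13.6, 13.7 and 15.8 CPM. These did not overlap, but the difference of 0.66 ± 0.33 was not called (edgeR adjusted p = 0.707). In WT no time was called. KO livers held 5.21, 7.05 and 11.6 CPM at 48 h (-0.86 ± 0.33, adjusted p = 0.0383) and 7.3, 6.77 and 6.5 CPM at 4 weeks (-1.07 ± 0.33, adjusted p = 0.0414). Both groups lay below all 3 KO baseline libraries, and both calls were lost without any 1 of those 3. The 48 h call was also lost without KO 48 h replicate 1 or 2, and the 4 week call without any of its own 3 libraries. With no filter both were lost (adjusted p = 0.0682 and 0.0639), and the 48 h call was lost in a fit without the 96 h libraries (0.0517) and in limma on FPKM (0.112). Markers of cells that carry AXL are given beside it. At WT baseline the 8 Kupffer cell markers summed to 95 to 148 CPM and the 8 endothelial markers to 137 to 167 CPM, both below KO baseline without overlap, as Axl was, while the 12 stellate cell markers, at 198 to 259 CPM, overlapped KO baseline. No marker of these lists was called between the genotypes at baseline. In KO, the 8 Kupffer cell markers summed to 159 to 227 CPM at KO baseline, 77.9 to 207 CPM at 48 h and 99.8 to 137 CPM at 4 weeks, with 2 and 0 called lower. The 8 endothelial markers summed to 177 to 188, 78 to 168 and 96.7 to 105 CPM, with 3 and 5 called lower, and the 12 stellate cell markers to 224 to 388, 207 to 310 and 127 to 196 CPM, with 2 and 4 called lower. Of all genes, 17% were called lower at 48 h and 4.28% at 4 weeks. At 48 h the 2 of 8 Kupffer cell and 2 of 12 stellate cell markers lay near that share, and the 3 of 8 endothelial markers above it. At 4 weeks the 5 of 8 endothelial and 4 of 12 stellate cell markers lay above it, and the 0 of 8 Kupffer cell markers did not. No marker of these 3 lists was at 0 in any library. Their part in the values of Axl was not tested.

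Lats2 encodes the kinase that phosphorylates YAP and is itself a YAP target. It lay between 10.6 and 20.1 CPM in all libraries. WT libraries held 14.7, 13.9 and 17 CPM at baseline and 16.1, 17.1 and 20.1 CPM at 40 h, which overlapped. No time was called in either genotype; log2 changes lay between -0.34 and 0.22. The lowest values, -0.34 ± 0.15 in the libraries labelled KO at 96 h and -0.34 ± 0.16 in KO at 7 days, had an edgeR adjusted p of 0.0565 and 0.214.

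Counted over genes and times, 10 of 70 tests against baseline were called in WT and 15 of 70 in KO, or 8 and 12 without 96 h. Over all genes, 20% of such tests were called in WT and 26.6% in KO, so neither count exceeded the background; without 96 h these shares were 18.7% and 23.8%. The WT count was 5 without WT baseline replicate 2, and the KO count 9 without KO baseline replicate 1 or 3. Leaving out 96 h, these counts were 5 without WT baseline replicate 2, 6 without KO baseline replicate 1 or 3, and 7 without KO baseline replicate 2.

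The comparison of KO with WT asks whether loss of Uhrf1 shifted these genes at any stage. Averaged over the 7 conditions other than 96 h, no gene was called (0 of 10, and 0 of 10 at an unadjusted p under 0.05), where 2.13% of all genes were. The narrowest intervals were those of Yap1 (log2 difference 0 ± 0.05, 95% interval -0.1 to 0.09), Lats2 (-0.03 ± 0.06, -0.15 to 0.08) and Wwtr1 (-0.05 ± 0.06, -0.17 to 0.08). Next were Amotl2 (-0.08 ± 0.08, -0.24 to 0.08) and Tead1 (0.09 ± 0.09, -0.09 to 0.28). For Ctgf (0.2 ± 0.23, -0.26 to 0.67), Ankrd1 (0.25 ± 0.33, -0.42 to 0.91), Cyr61 (0.05 ± 0.17, -0.29 to 0.4), Ajuba (0.08 ± 0.17, -0.26 to 0.42) and Axl (0.02 ± 0.13, -0.25 to 0.28) the data allow larger differences either way.

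At single conditions, 2 of 80 tests were called, both at 96 h (Wwtr1 and Amotl2 above), against 2% over all genes. Without 96 h the count was 0 of 70, against 0.242% called over all genes. At an unadjusted p under 0.05 it was 3 of 70 (4.29%), against 6.01% over all genes. The 3 were Amotl2 at baseline and Ctgf at 40 h and 4 weeks, the last 2 in opposite directions. DESeq2 and limma also made 0 calls outside 96 h. In the joint test of whether the course from baseline differed between genotypes, 0 of 10 were called (0 at an unadjusted p under 0.05), against 0.0426% of all genes (5.66% unadjusted).

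**Figure D4:**
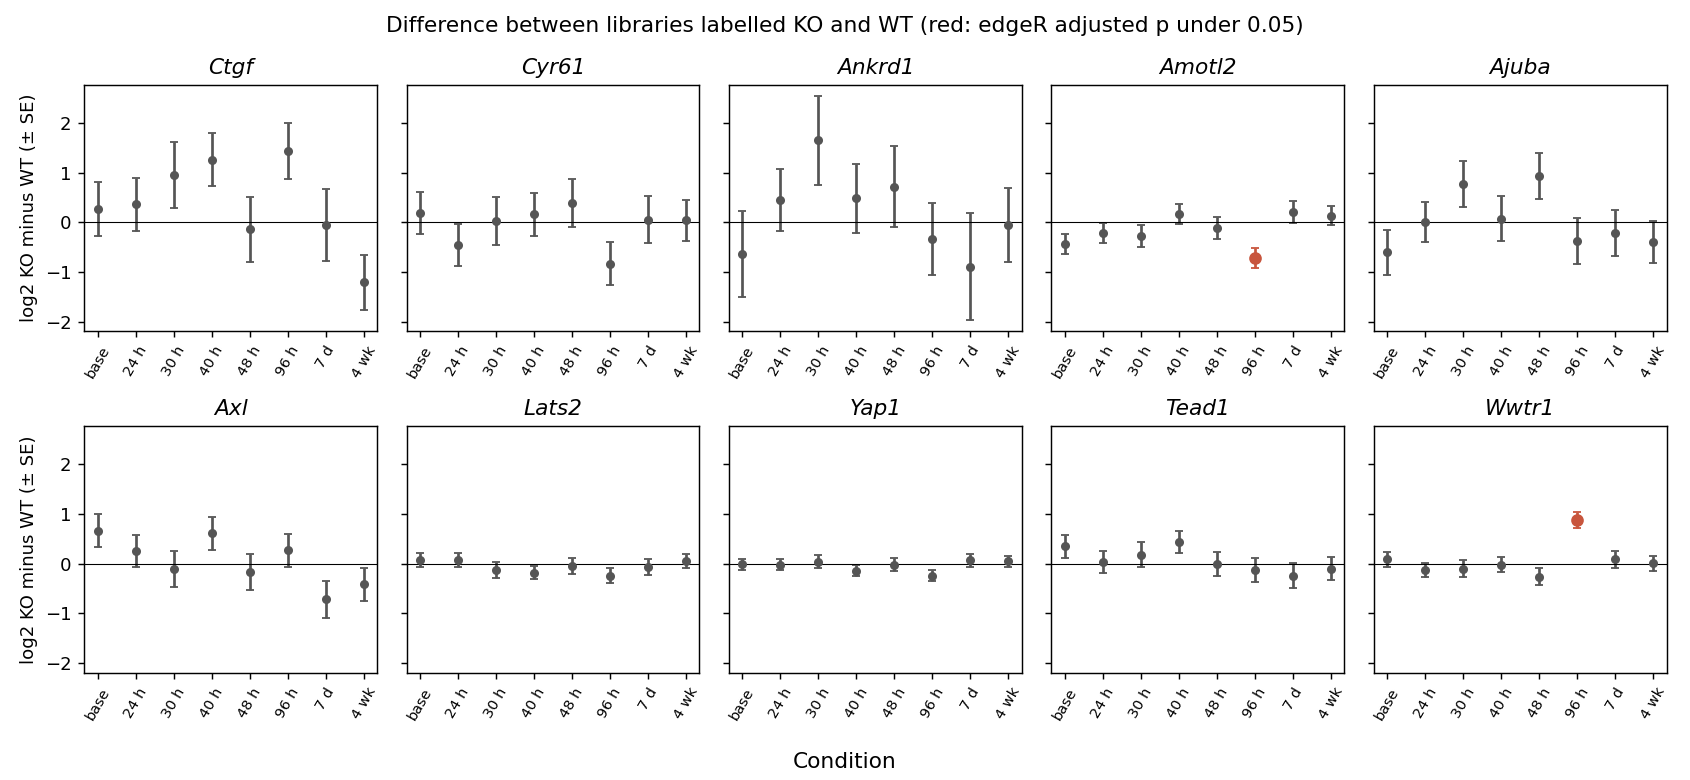
Log2 difference between libraries labelled KO and WT (y axis, point) with its SE (bar) at baseline and each time after partial hepatectomy (x axis), 1 panel per gene. Red points, Amotl2 and Wwtr1 at 96 h, passed the edgeR test; Yap1 and Lats2 stay near 0 with short bars, and Ctgf and Ankrd1 have the widest.

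The rest of the pathway was described with lists of genes that are not among the 10. Of 30 kinases, adaptors and upstream regulators, 8 were called at 40 h in WT (7 higher, 1 lower; median log2 change 0.24, against 0 for all genes) and 8 in KO (7 higher, 1 lower; median 0.06, against -0.01). Over all genes 36.5% were called at 40 h in WT (19.2% higher, 17.3% lower) and 35.6% in KO (17.9% higher, 17.7% lower). The count of 8 of 30 did not exceed the background in either genotype. Map4k4, a kinase that can activate LATS, rose by 2.52 ± 0.29 in WT (edgeR adjusted p = 1.18e-08) and 2.36 ± 0.27 in KO (2.39e-08). Fat1, a giant cadherin upstream of the cascade, rose by 1.11 ± 0.22 in WT and 0.93 ± 0.21 in KO. Wtip, an adaptor related to Ajuba, rose by 1.05 ± 0.33 in WT, and Rassf1, a scaffold of the STK3 and STK4 kinases, by 0.82 ± 0.25 in KO. Limd1, another relative of Ajuba, fell by 0.32 ± 0.11 in WT and 0.46 ± 0.11 in KO. In the joint tests 15 of 30 were called in WT and 22 of 30 in KO, against 53.6% and 65.7% of all genes.

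Of the other TEAD and VGLL genes, 3 of 7 passed the filter. Tead2 rose at 40 h in WT (1.28 ± 0.43, edgeR adjusted p = 0.0188), and none of the 3 was called at 40 h in KO, where Tead2 was at 0.74 ± 0.41. Tead4 did not exceed 0.666 CPM in any library.

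Of 24 other YAP target genes, 21 were tested. At 40 h 8 were called in WT (5 higher, 3 lower, median log2 change 0.57) and 6 in KO (4 higher, 2 lower, median 0.34). Over all genes, 36.5% were called in WT and 35.6% in KO. Birc5, which encodes survivin and is also a gene of mitosis, rose by 5.69 ± 0.44 in WT and 6.13 ± 0.45 in KO. Fstl1, a secreted glycoprotein, rose by 1.32 ± 0.31 in WT and 1 ± 0.29 in KO, and Ccdc80, a matrix protein, by 1.14 ± 0.3 in WT. Lower genes were Gadd45a (-2.09 ± 0.61 in WT), Igfbp3, a carrier of insulin-like growth factors (-1.34 ± 0.31 in WT and -1.11 ± 0.29 in KO), and F3, tissue factor (-0.96 ± 0.34 in WT and -1.07 ± 0.34 in KO).

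SRF and actin genes, which answer to the cytoskeleton as YAP does and share several targets with it, were all tested. At 40 h 6 of 14 were called in WT (5 higher, 1 lower; median log2 change 0.72) and 7 in KO (6 higher, 1 lower; median 0.94), against 36.5% and 35.6% of all genes. Tpm4, a tropomyosin, rose by 1.78 ± 0.2 in WT and 1.61 ± 0.2 in KO. Flna, the actin crosslinker filamin A, rose by 1.57 ± 0.29 in WT and 1.19 ± 0.28 in KO. Myh9, a nonmuscle myosin, rose by 1.11 ± 0.18 in WT, cytoplasmic actin Actg1 by 1.21 ± 0.31 in KO, and smooth muscle actin Acta2 by 1.96 ± 0.76 in KO (edgeR adjusted p = 0.0422), where the stellate cell sums of baseline and 40 h overlapped. Zyx, the adhesion protein zyxin, fell by 0.64 ± 0.17 in WT and 0.44 ± 0.17 in KO. For the mean difference between genotypes no gene of these 4 lists was called by edgeR, and the counts at an unadjusted p under 0.05 were 3 of 30, 0 of 3, 2 of 21 and 1 of 14, against 10.6% of all genes.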

How the data were processed

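The authors deposited whole-number counts per gene, used for all tests, and FPKM values, used for levels per length and in 1 alternative. Tools named in the submitters' processing notes are FastQC 0.11.5, Trimmomatic, TopHat2 2.1.0, Cufflinks 2.2.1, HTSeq and DESeq2, and the build is mm10. Paired reads of 100 bases came from poly(A) libraries, per the labels' protocols.

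Counts were filtered with filterByExpr, scaled by TMM and fitted in edgeR 4.0.16 (R 4.3.3; glmQLFit, robust) with 1 mean per group over all 45 libraries and 29 residual degrees of freedom. Fold changes are log2 values of that fit. Adjusted p-values are Benjamini-Hochberg over 14090 genes within a contrast. Joint F tests left out 96 h. Alternatives were DESeq2 1.42.0, limma 3.58.1 on log2(FPKM + 0.1), other size factors, no filter, a replicate block, and leaving out libraries. The test was checked on simulated data.

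The 10 genes and all lists were chosen with earlier results of these data known. From each pathway list, up to 3 called genes per direction with the largest change at 40 h in each genotype were named; for Ctgf and Cyr61, the 3 genes of most similar profile (among genes averaging a log2 CPM of 1 or more) were named. A gene that this rule takes is not reported here. Tead2 in KO, Tead4 and the markers were named in addition, after their values were seen. The planned promoters were those of Ctgf, Cyr61 and Ankrd1; that of Ankrd1 overlaps an annotated transcript, so only its sites are shown, and the Ajuba window was added after the values were seen. The samples were grouped by their titles.

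Same-numbered libraries deviated together (r over 0.1 of log2 CPM minus the group mean) in 8 of 21 pairs of WT and KO. They did so in 2 of 6 pairs of baseline and 40 h. Differently numbered libraries were not compared, so these counts cannot decide whether numbers mark pairs. Numbers were not treated as pairs in the main fit, and a replicate block was among the alternatives.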

Additional observations from a re-analysis of the deposited data

Results flagged for a closer look

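The change of Wwtr1 from baseline to 96 h differed between libraries labelled KO and WT by 0.78 ± 0.22 on the log2 scale (edgeR adjusted p = 0.0451). It was brought out because the change after the same operation differed between the genotype labels. The 3 libraries labelled WT went from 14.4 to 20.7 CPM at baseline to 12.2 to 13.3 CPM at 96 h, and the 3 labelled KO from 14 to 23.4 CPM to 20.7 to 25.8 CPM. In that contrast 2.91% of all genes were called. The call was lost in 19 of 45 fits that left out 1 library (0.59 to 0.94), and with no filter (adjusted p = 0.0634), a replicate block (0.0531) and limma on FPKM (0.19). Rhox5 puts the libraries labelled WT at 96 h inside the KO range, so the genotype behind this difference is uncertain.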

How the results depend on the processing

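The number of genes called for the WT course was 5 (3 to 6 when each library was left out in turn). Over the other alternatives it was 3 to 7, and 3 came with no filter on low counts. For the KO course it was 5 (5 to 6), and 5 to 7 over the other alternatives. With 96 h included in the joint test, Yap1 and Wwtr1 passed in both genotypes. Calls at single times numbered 10 in WT (5 to 12 leaving out each library) and 15 in KO (9 to 15), or 8 (5 to 10) and 12 (6 to 13) without 96 h, of which the KO count was 7 with no filter. KO against WT gave 2 calls, 1 by limma on FPKM (1 to 3). At 40 h KO gave 2 calls, 1 with no filter, by limma on FPKM, and with a replicate block on the baseline and 40 h libraries alone (1 to 3), and WT gave 2 (2 to 3). The genotype mean and the interaction gave 0 under all alternatives. With no filter, the other TEAD and VGLL genes called in the WT course fell from 1 to 0.

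With replicate number as a block over all libraries, the WT course had 4 calls, the KO course 5, single times 10 in WT and 13 in KO, and KO against WT 2. The block ended the calls of Cyr61 in the WT course and of Tead1 in KO at 48 h and 4 weeks.

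The uncalled genotype means near 0 changed sign: with 96 h included, Cyr61 was -0.06 and Wwtr1 0.07; by limma on FPKM, Amotl2 was 0.03, Lats2 0.09, Yap1 0.06 and Wwtr1 0.01; leaving out single libraries, Cyr61 lay between -0.03 and 0.13, Axl between -0.05 and 0.12 and Yap1 between -0.02 and 0.02. The r of Ctgf and Cyr61 was -0.05 without the 2 farthest libraries. Causes were not tested. Depth limits Ankrd1, with at most 11 counts, and groups of 2 or 3 limit Ctgf, whose SD within groups was 0.68.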

Other observations

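The profiles of Tead1 and Ajuba were compared with those of all genes in the same way as those of Ctgf and Cyr61, after their values had been seen. Over the 14 group means without 96 h, the genes most like Tead1 with a known role included Lbr, the lamin B receptor of the nuclear envelope (r = 0.96), and 9.12% of the genes compared reached an r of 0.8. For Ajuba the nearest were LTO1 and Nek6, the latter a mitotic kinase (r = 0.9), and Ap3s2, a subunit of an adaptor complex (r = 0.89), with 0.478% of the genes compared at 0.8 or more.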
